A study of Mus musculus with 2 samples.

Results

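The 10 genes described here build, load, remove or position the ring complexes that fold chromosomes: the cohesin subunits Smc1a, Smc3, Rad21, Stag1 and Stag2, the cohesin loader Nipbl, the release factor Wapl, the boundary factor Ctcf, and the condensin subunits Smc2 and Smc4. They were chosen by name for their role, not by a measured value, though earlier results of these data were known. They are 10 of the 43346 genes with a value. Total RNA depleted of ribosomal RNA was measured in G1E, an immortalized mouse erythroid progenitor line labelled Gata1-, from strain C57BL/6J, given as male and postnatal. The only group had 2 biological replicates, untreated as far as the labels tell, so values could be compared between genes and between the libraries but not between conditions. The passage and clone, and whether the replicates were separate cultures, were not given in the sources used here. The spread between them may therefore be partly technical.

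Cohesin is a ring of the SMC proteins SMC1A and SMC3 closed by the kleisin RAD21. It holds sister chromatids together from replication to mitosis and, through all of interphase, extrudes loops of DNA that stop at CTCF bound to DNA in a given orientation. NIPBL drives loading and extrusion, and WAPL opens the ring. Condensin is built on the related pair SMC2 and SMC4 and compacts chromosomes in mitosis. Red cell precursors, in which distant enhancers contact the globin genes, also divide fast. Contacts between DNA sites were not measured here.

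The libraries held 58094631 and 55274368 expected counts on genes in replicates 1 and 2. Levels are given as TPM, counts divided by the effective length of each transcript and scaled to the same total in every library, so genes can be set side by side. A gene counted as detected at 1 TPM or more in both libraries. Much of the TPM lay outside nuclear protein-coding genes. Scaled to those genes alone, Nipbl at 10.22 and 7.63 TPM in replicates 1 and 2 stood at 56.63 and 44.95. The levels and the cut of 1 TPM are thus on the scale of total RNA. The 8 erythroid progenitor markers looked up were all detected, with a median of 30.27 TPM. They ranged from Epor at 2.24 and 3.24 TPM in replicates 1 and 2 to the transferrin receptor Tfrc at 114.45 and 98.48. Markers of mast cells and basophils were not among those looked up. None of 4 T cell, 5 granulocyte and macrophage and 4 fibroblast and stem cell markers was detected, and S100a8 was at 0 counts in both libraries. None of 7 Y-linked genes was detected either, with 3 counts at most in a library, in a line whose label is male. Gata1 held 1862 and 1922 counts, or 7.06 and 7.13 TPM, and a gene total does not check which part of the gene was altered.

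All 10 genes were detected, at 5 TPM or more in both libraries, against 21% of all genes and 38.7% of 21461 nuclear protein-coding genes at 1 TPM. The median of the 10 was 30.75 TPM in replicate 1 and 23.68 in replicate 2, a mean of 27.22 with an SD of 5.0 (n = 2). The median detected protein-coding gene stood at 7.0 TPM. Each of the 10 rested on 5363 to 43458 counts per library, and the deposited posterior SD of the count was 0 for each, so no reads were shared with other genes in the authors' estimate. The authors' TPM interval for Smc3, for example, spanned 27.08 to 28.26 in replicate 1 but 16.91 to 17.82 in replicate 2, far narrower than the gap between the libraries. Among detected protein-coding genes ranked by mean TPM, Stag2 was at percentile 97.2 and the lowest of the 10, Nipbl, at percentile 59.3.

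The genes of the core ring stood between 22.6 and 28.6 TPM on average. Smc1a, the SMC subunit encoded on the X chromosome (152016428 to 152062694, ENSMUSG00000041133.7, plus strand, mm10), stood at 33.22 and 24.03 TPM in replicates 1 and 2. Smc3, its partner on chromosome 19 (53600398 to 53645833, ENSMUSG00000024974.10, plus strand), stood at 27.81 and 17.48 TPM. Rad21, the mitotic kleisin on chromosome 15 (51962240 to 51991747, ENSMUSG00000022314.9, minus strand), stood at 28.28 and 23.33 TPM. Replicate 1 was the higher library for each, and the ranges of the 3 genes overlapped.

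Pairs of genes were set against the spread between libraries. A pair was said to differ when the mean log2 ratio of TPM + 1 exceeded 3 times the pooled SD of genes at that level and had the same sign in each library. The limit was 0.73 for genes between 10 and 100 TPM, or 1.66-fold, and smaller ratios were not called. The pooled SD behind it includes the shift common to a whole library. At this level it was 0.24 over all detected genes and 0.18 over protein-coding genes, so the limit is a wide one. Smc1a exceeded Smc3 by 0.34 ± 0.13 (log2, SD, n = 2) and Rad21 exceeded Smc3 by 0.21 ± 0.26, both inside it. Smc1a and Rad21 differed by 0.13 ± 0.13, also inside, and with protein-coding transcripts only the sign of that ratio turned.

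Nearly all of the core reads fell on full-length coding transcripts. Rad21 had 1 transcript in the tables. Smc3-201 held 91.94% and 92.43% of Smc3 TPM and 99.3% of its counts in both libraries. Smc1a-201 held 79.51% and 85.14% of Smc1a TPM. The rest of Smc1a lay mainly in Smc1a-206, a transcript of the class sent to nonsense-mediated decay, at 13.66% and 6.96%.

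The Stag genes encode the accessory subunit, of which each cohesin ring carries 1 and which touches CTCF. Stag2 (chromosome X, 42149317 to 42277185, ENSMUSG00000025862.10, plus strand) had the highest gene level of the 10, 123.53 and 104.22 TPM, on 43458 and 38374 counts. Stag1 (chromosome 9, 100597798 to 100959375, ENSMUSG00000037286.11, plus strand) stood at 13.22 and 10.32 TPM on 8970 and 7153 counts. Stag2 was thus 90.3% and 91.0% of the Stag1 plus Stag2 TPM, a mean of 90.7% ± 0.46 (SD, n = 2), and exceeded Stag1 by 3.17 ± 0.06 on the log2(TPM + 1) scale against a limit of 1.06.

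Most of the Stag2 level came from 1 very short transcript. Stag2-204, 294 nt long with 3 exons, held 62.41% and 60.80% of Stag2 TPM on 1182.59 and 1177.51 counts, which are 2.7% and 3.1% of the gene's counts. Its effective length was 90.88 nt in replicate 1 and 109.13 in replicate 2, against 5612.83 and 5633.54 for the full-length Stag2-201. A count on the short form thus adds far more TPM than a count on the long one. It begins with its own exon of 75 nt (chrX:42151014-42151088), shares its other 219 nt with Stag2-201 and lacks the rest of that transcript.

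With only transcripts of 1000 nt or more, a choice made after seeing these values, Stag2 fell from a mean of 113.875 TPM to 41.78 ± 4.02 (SD, n = 2) and its share of the Stag1 plus Stag2 TPM from 90.7% to 81.3% ± 0.41. Stag1 stood at 9.62 ± 1.18 TPM by that measure. Stag2 then exceeded Stag1 by 2.01 (log2) against a limit of 0.49. The direction was the same in both libraries and under every alternative tried, while the size depended on whether the short form was counted.

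**Figure D1:**
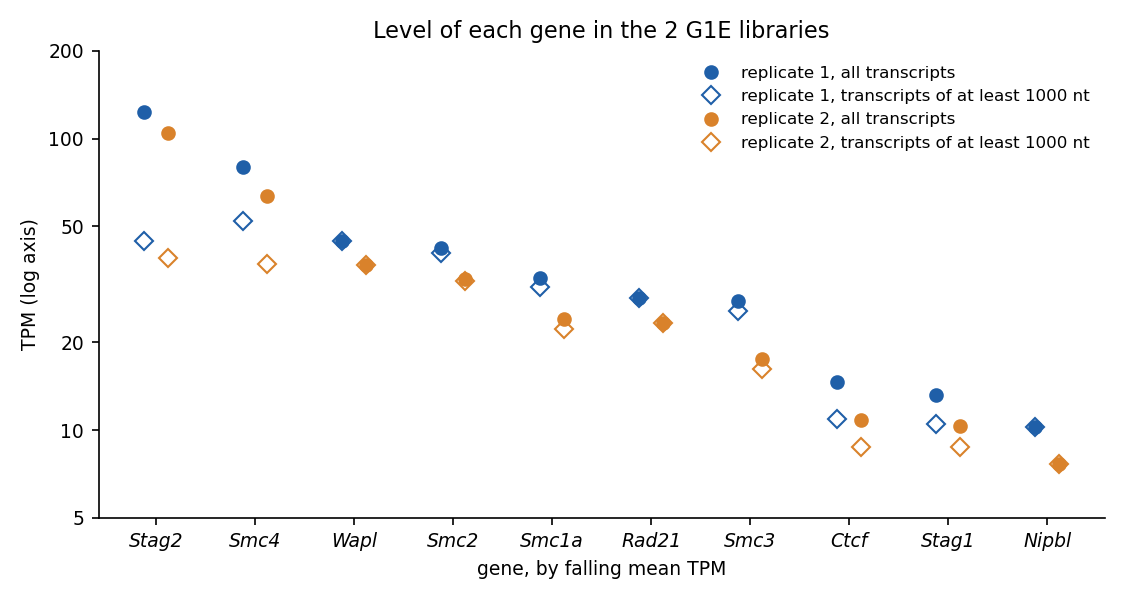
Level of each of the 10 genes in TPM on a log axis, in replicate 1 (blue) and replicate 2 (orange). Filled circles sum all transcripts and open diamonds only transcripts of 1000 nt or more. Stag2 falls from 123.53 and 104.22 to 44.63 and 38.94 TPM and Smc4 from 79.88 and 63.54 to 52.22 and 37.16, whereas Wapl, Rad21 and Nipbl hardly move.

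Stag1 and Stag2 each have an alternative coding exon of 111 nt, or 37 codons, toward the end of the coding region, and the estimates put them in opposite states. The exons are printed in capitals with 15 bases of the neighbouring exons on each side, from the GENCODE M21 transcripts Stag1-206 and Stag2-203, because the contrast below is about them. They lie at chr9:100953486-100953596 and chrX:42266366-42266476, both on the plus strand of GRCm38 (mm10).
Stag1 exon: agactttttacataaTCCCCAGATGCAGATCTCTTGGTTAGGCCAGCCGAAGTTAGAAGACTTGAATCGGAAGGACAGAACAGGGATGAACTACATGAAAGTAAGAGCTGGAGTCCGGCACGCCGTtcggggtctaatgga
Stag2 exon: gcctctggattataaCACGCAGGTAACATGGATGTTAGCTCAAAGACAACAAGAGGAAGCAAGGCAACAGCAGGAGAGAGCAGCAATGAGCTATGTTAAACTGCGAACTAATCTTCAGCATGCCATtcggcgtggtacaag
Aligned base by base without gaps, 51 of the 111 positions are the same, or 45.9%.

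In Stag1 the exon was mostly kept. Transcripts with it held 8.03 TPM in replicate 1 and 5.94 in replicate 2, and the transcript that joins across it, Stag1-201, held 0.47 and 1.18. The share with the exon was 94.5% and 83.4%, a mean of 88.9% ± 7.81 (SD, n = 2). Stag1-206, the leading form with 3774 coding bases, held 52.56% and 43.07% of the gene's TPM. The partial coding form Stag1-214, which also has the exon, held 6.72% and 12.27%. Stag1-201 held 3.54% and 11.45%, and Stag1-209, a retained intron of 692 nt, 6.79% and 11.50%.

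In Stag2 the same-sized exon was mostly skipped. Stag2-203, the form with it, held 5.51 and 3.89 TPM, and the forms without it, nearly all Stag2-201, held 38.41 and 34.23. The share with the exon was 12.5% and 10.2%, a mean of 11.4% ± 1.66 (SD, n = 2). From expected counts in place of TPM the means were 88.2% ± 8.69 in Stag1 and 12.0% ± 1.73 in Stag2. The lowest Stag1 value lay above the highest Stag2 value in either measure. These shares come from the authors' division of reads among annotated transcripts, not from reads counted across the exon junctions. The exon was singled out after the transcript values were seen.

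**Figure D2:**
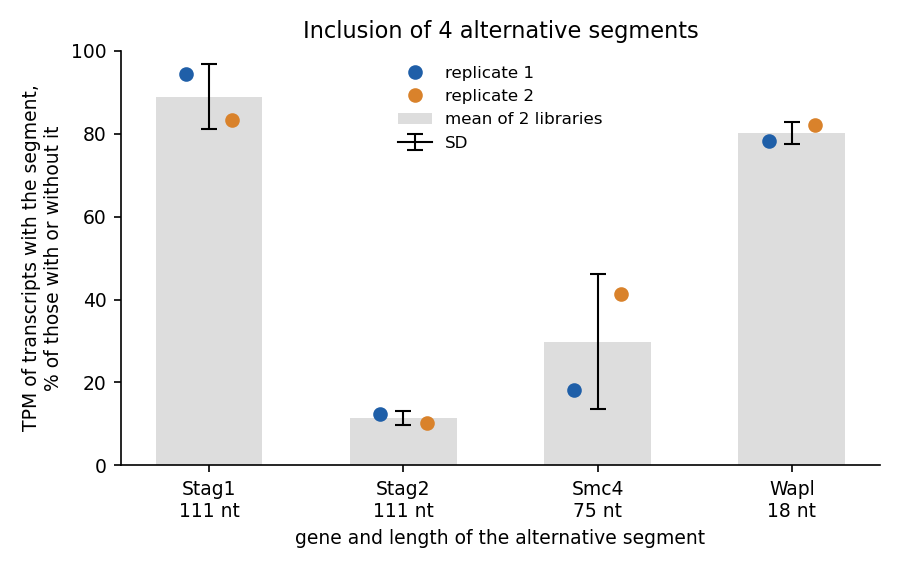
TPM of the transcripts that hold an alternative segment, as a percent of transcripts that hold it or join across it, for Stag1, Stag2, Smc4 and Wapl. Points are the libraries, bars the mean and whiskers the SD (n = 2). Stag1 lies at 94.5% and 83.4% and Stag2 at 12.5% and 10.2%, and the libraries are farthest apart for Smc4, at 18.2% and 41.3%, where the nonsense-mediated decay form Smc4-207 is counted among the transcripts with the segment.

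The loader had the lowest level of the 10 when all transcripts were counted. Nipbl (chromosome 15, 8290617 to 8444463, ENSMUSG00000022141.6, minus strand) stood at 10.22 and 7.63 TPM on 14845 and 11204 counts, all from 1 transcript of 8815 nt. Its obligate partner Mau2 stood at 4.64 and 4.53 TPM. Nipbl exceeded Mau2 by 0.82 ± 0.25 (log2) against a limit of 0.52, which did not hold without replicate 1 (0.64) or without replicate 2 (0.99), when the limit for a lone library is wider.

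The release factor was several-fold above the loader. Wapl (chromosome 14, 34673928 to 34747983, ENSMUSG00000041408.12, plus strand) stood at 44.49 and 36.77 TPM on 37211 and 30740 counts. Nipbl lay below Wapl by -2.07 ± 0.08 (log2, Nipbl over Wapl) against a limit of 0.73, in both libraries and under each alternative tried. Sororin (Cdca5), which shields replicated cohesin from WAPL, stood at 8.00 and 7.05 TPM, and Wapl exceeded it by 2.28 ± 0.08.

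Wapl reads fell mostly on 1 coding form. Wapl-201 held 58.83% and 60.19% of its TPM, Wapl-202 18.36% and 13.87%, and the transcript without a coding frame Wapl-203 15.26% and 22.94%. Wapl-201 and Wapl-202 differ in the coding region by a segment of 18 nt, 6 codons, at chr14:34694987-34695004 (plus strand), given in capitals between 15 bases on each side.
Wapl segment: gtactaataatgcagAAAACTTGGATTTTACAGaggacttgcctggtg
The share with the segment was 78.3% and 82.0%, a mean of 80.2% ± 2.59 (SD, n = 2). Wapl-202 is 3891 nt in the deposited tables and 4185 nt in release M21, from which the segment was read.

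The other genes of loading, acetylation and release were all present. Of 11 measured, 11 were detected, with a median of 7.86 TPM. Pds5a, which binds the ring together with WAPL, led at 38.8 ± 5.19 TPM, and separase (Espl1), which cuts the kleisin at anaphase, was lowest at 1.81 ± 0.099. Pds5a exceeded its paralog Pds5b by 2.30 ± 0.03 (log2). Of the acetyltransferases that lock SMC3, Esco2, active in replication, stood at 29.15 and 26.52 TPM and Esco1 at 10.81 and 9.0, a ratio of -1.41 ± 0.08 (Esco1 over Esco2) against a limit of 0.73.

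Ctcf, the zinc finger protein that stops loop extrusion, was near the lower end of the 10. It stood at 14.62 and 10.84 TPM on 6562 and 5363 counts (chromosome 8, 105636568 to 105682922, ENSMUSG00000005698.11, plus strand). Its coding form Ctcf-201 held 67.29% and 75.54% of TPM and 90.3% and 93.4% of counts. The retained intron Ctcf-206, 851 nt long, held 23.81% and 17.15% of TPM. With transcripts of 1000 nt or more the level was 9.82 ± 1.54 TPM. The opposite-strand genes that overlap it held few reads, with Agrp at 0 and 2 counts and Gm5914 at 43 in each library, and the strand used in counting was not given in the sources used here.

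Both condensin genes stood above the core ring genes by mean TPM, but Smc2 was inside the limit of 0.73 against each of them. The log2 ratios over Smc2 were -0.38 for Smc1a, -0.52 for Rad21 and -0.73 for Smc3. With transcripts of 1000 nt or more only Smc3 was past the limit (-0.81 against 0.49). Smc4 (chromosome 3, 69004738 to 69034623, ENSMUSG00000034349.10, plus strand) stood at 79.88 and 63.54 TPM on 35221 and 26339 counts. Its partner Smc2 (chromosome 4, 52439243 to 52488260, ENSMUSG00000028312.15, plus strand) stood at 42.00 and 32.92 TPM on 35408 and 28699 counts. Smc2 lay below Smc4 in each library, by -0.92 ± 0.01 (log2, Smc2 over Smc4) against a limit of 0.73. The call did not hold without replicate 1 (-0.93) or without replicate 2 (-0.91), where the limit is wider. It also did not hold with transcripts of 1000 nt or more (-0.27 against 0.49), and the sign turned with protein-coding transcripts only (0.07).

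The reads of Smc2 and Smc4 were spread over transcripts in different ways. Smc2-201 and Smc2-202, which share a coding region of 3573 nt, held 57.18% and 64.05%, and 39.30% and 34.51%, of Smc2 TPM. In Smc4, 4 retained introns under 1000 nt held 32.6% and 38.3% of TPM on 5.2% and 7.3% of the counts. Smc4-204, of 756 nt, was the largest of them at 14.88% and 21.94%, followed by Smc4-209 at 11.45% and 9.21%. Whether reads on retained introns, here and in Ctcf and Stag1, came from such transcripts or from unspliced RNA was not tested. With protein-coding transcripts only, Smc4 stood at 46.19 and 25.86 TPM. The leading coding form Smc4-202 held 53.45% and 34.33%, and Smc4-207, of the nonsense-mediated decay class, 7.55% and 17.79%.

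An Smc4 segment of 75 nt, 25 codons, is coding in Smc4-201 and absent from Smc4-202 (chr3:69007189-69007263, plus strand). It is shown in capitals, with 15 bases on each side, because it separates these 2 coding forms.
Smc4 segment: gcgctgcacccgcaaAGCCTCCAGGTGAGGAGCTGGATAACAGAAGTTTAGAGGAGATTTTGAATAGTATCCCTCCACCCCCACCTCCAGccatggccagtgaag
Transcripts with it held 9.53 TPM in replicate 1 and 15.35 in replicate 2, and Smc4-202 held 42.69 and 21.81. Most of the former was Smc4-207, the nonsense-mediated decay form with 138 coding bases, at 6.03 and 11.3 TPM, while the coding form Smc4-201 held 3.10 and 3.88. The share with the segment was 18.2% and 41.3%, a mean of 29.8% ± 16.3 (SD, n = 2). Among protein-coding transcripts only, a measure added after seeing the data, it was 7.6% and 15.7%, a mean of 11.6% ± 5.72. The other 3 segments stood by that measure at 88.6% ± 8.11 in Stag1, 11.4% ± 1.66 in Stag2 and 80.2% ± 2.59 in Wapl.

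**Figure D3:**
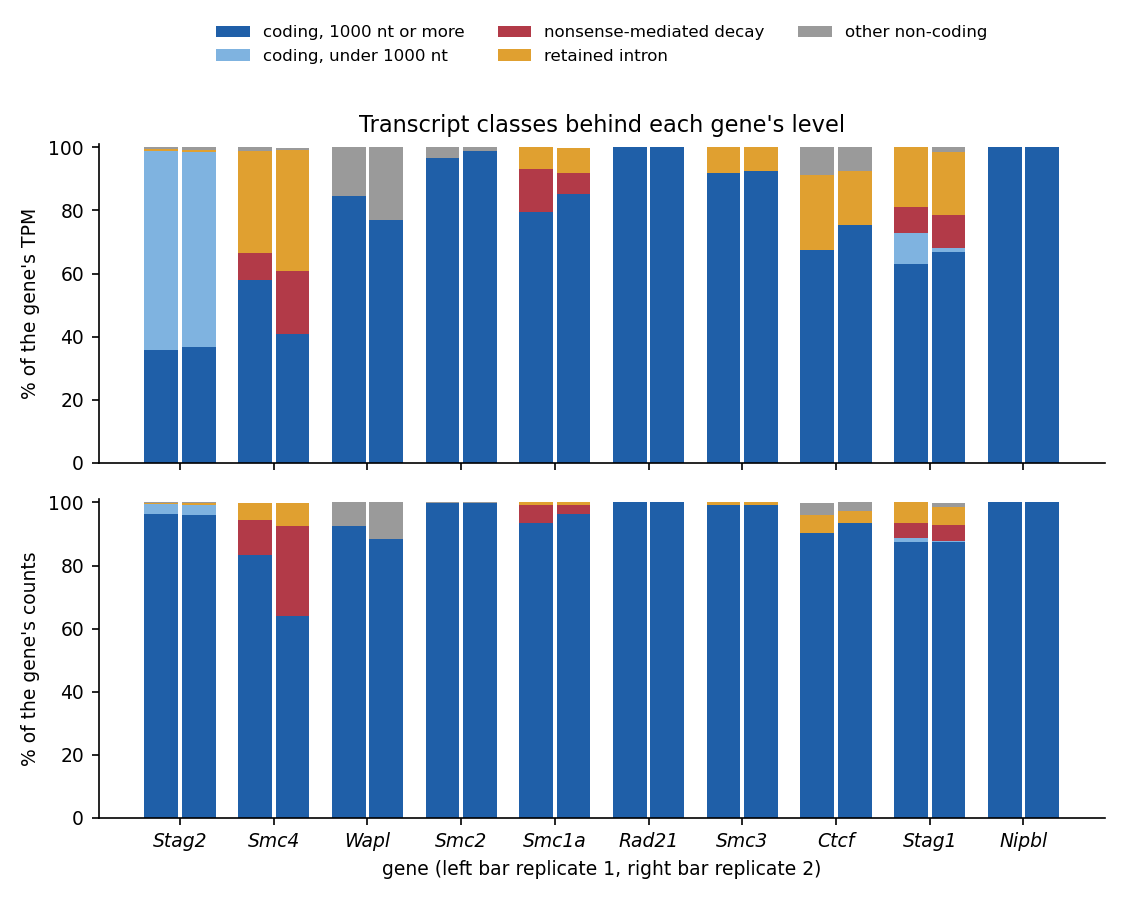
Share of each gene's TPM (top) and expected counts (bottom) by transcript class, with replicate 1 on the left and replicate 2 on the right of each pair of bars. Short coding forms hold 63.2% and 61.9% of Stag2 TPM but 2.9% and 3.3% of its counts, and retained introns hold 32.6% and 38.3% of Smc4 TPM but 5.2% and 7.3% of its counts.

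The subunits that tell condensin I from condensin II were all detected, 3 of 3 in each, with medians of 26.14 and 16.58 TPM. The gap between these medians came with the shorter transcripts. With transcripts of 1000 nt or more the middle genes were Ncaph at 17.02 TPM and Ncapg2 at 16.58 TPM. In condensin I the HEAT-repeat subunit Ncapd2 led at 40.95 ± 5.76 TPM and the kleisin Ncaph was lowest at 17.9 ± 1.59. With transcripts of 1000 nt or more the order turned: Ncapd2 was lowest at 16.62 ± 1.48 TPM, beside 17.02 ± 1.87 for Ncaph and 23.92 ± 3.94 for Ncapg, with Ncapd2 and Ncaph closer than their SDs. In condensin II the kleisin Ncaph2 led at 24.9 ± 1.26 TPM and Ncapd3 was lowest at 9.93 ± 0.177. Ncapd2 exceeded Ncapd3 by 1.93 ± 0.18 (log2) against a limit of 0.73, or by 0.69 against 0.49 with long transcripts. The kleisins (Ncaph over Ncaph2, -0.45 ± 0.19) and Ncapg over Ncapg2 (0.62 ± 0.03) were inside the limit. With long transcripts Ncapg over Ncapg2 was just past it (0.50 against 0.49), while Ncaph over Ncaph2 was not (-0.24).

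Among the meiotic counterparts 1 of 4 was detected. Rec8, the kleisin that replaces RAD21 in germ cells, stood at 13.88 and 13.14 TPM on 4335 and 4210 counts (chromosome 14, 55618037 to 55625395, plus strand). Its full coding transcript of 2184 nt held 92.63% and 93.01% of the TPM. Rad21 exceeded Rec8 by 0.88 ± 0.14 (log2) against a limit of 0.73, though not without replicate 1 (0.78) or replicate 2 (0.98). The gene ends 5 bases from Ipo4 on the opposite strand, which stood at 3.36 and 4.03 TPM.

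The other germline partners were near 0. Smc1b had 4 and 1 counts, Rad21l 1 and 0, and Stag3 21 and 3, or 0.09 and 0.01 TPM. Ctcfl, the germline paralog of Ctcf, was at 0 counts in both libraries, which allows up to 3 counts, or 0.0516 and 0.0543 CPM (counts scaled by library depth) for counting error alone. Rec8 was thus detected without the meiotic SMC and Stag subunits.

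**Figure D4:**
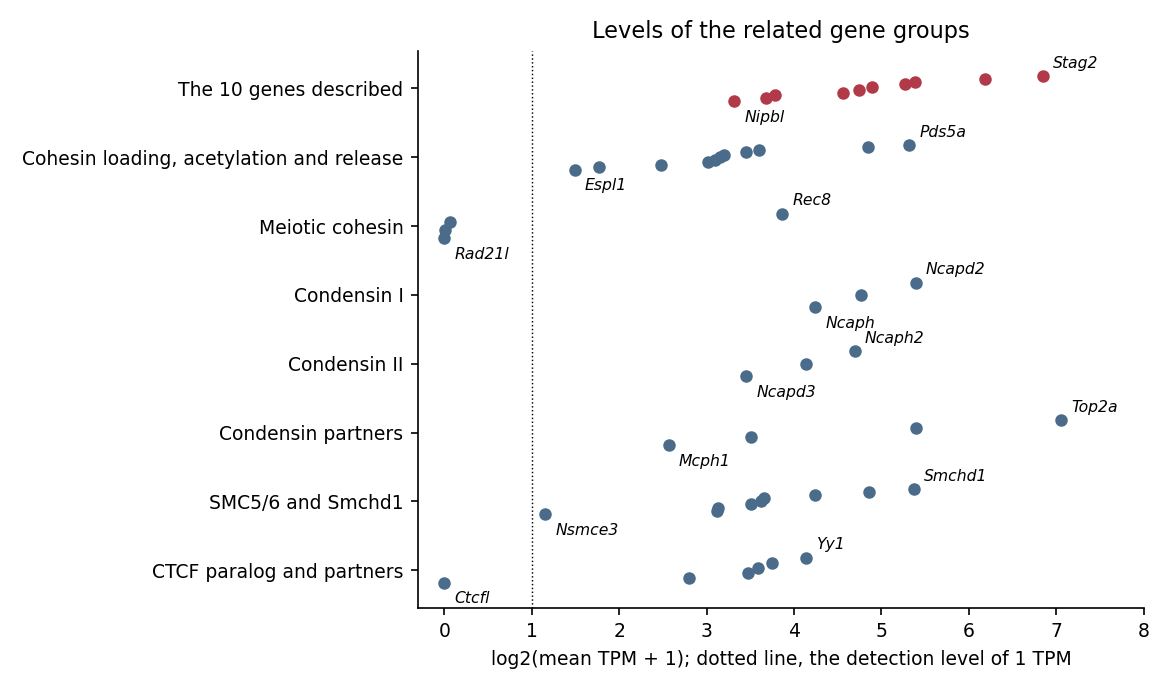
Mean level of each gene on the log2(TPM + 1) scale, by group, with the highest and lowest gene of each group named and a dotted line at the detection level of 1 TPM. The 10 genes lie between Nipbl and Stag2, and Rec8 at a mean of 13.51 TPM stands apart from the other meiotic genes and Ctcfl near 0.

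Of all other genes of these pathways, 36 of 40 measured were detected, with a median of 10.4 TPM. Among 20 pairs of related genes fixed by role, with earlier results of these data known, 14 were past the limit. The 6 inside it were Smc1a and Smc3, Rad21 and Smc3, Smc3 and Smc2, Ncaph and Ncaph2, Ncapg and Ncapg2, and Smc5 and Smc6. The pairs with a counterpart near 0 passed with a pseudocount of 1, which understates their ratios, and they were bound to pass. The share past the limit among gene pairs at large was not computed, for these pairs or those below. The counts are therefore a description only.

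Across the 10 genes the order by mean TPM was Stag2, Smc4, Wapl, Smc2, Smc1a, Rad21, Smc3, Ctcf, Stag1 and Nipbl. Of the 45 pairs 32 differed beyond the limit, but of the 9 neighbours in the order only 2 did. Smc4 lay above Wapl by 0.80 and Smc3 above Ctcf by 0.76, both just past 0.73. Neither held without replicate 1 or without replicate 2, when the lone-library values were -0.77 and -0.83 for Wapl over Smc4 and 0.64 and 0.88 for Smc3 over Ctcf. With transcripts of 1000 nt or more the order began with Smc4, Stag2, Wapl and Smc2, from 44.69 to 36.56 TPM, and none of these neighbours differed. The step from Smc3 to Ctcf was then 0.99 against 0.49 and was the only neighbour pair past the limit. Ctcf, Stag1 and Nipbl were inside it in both measures.

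All 10 genes were lower in replicate 2 by TPM. So were 71.9% of 8303 detected protein-coding genes, whose median log2 difference was -0.14, and each of the 10 lay below that median. Smc3 differed most, by -0.67, and only 1.6% of the coding genes fell further. Smc1a differed by -0.47, Ctcf by -0.43 and Nipbl by -0.42, while Stag2 was closest to even, at -0.25. After rescaling TPM to protein-coding genes alone the 10 were again all lower and below the coding median, which was -0.05.

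The difference moved with gene length. The share of coding genes lower in replicate 2 was 51.6% under an effective length of 1000 nt, 63.5% from 1000 to 2000, 77.6% from 2000 to 4000, 90.5% from 4000 to 6000 and 95.6% above. All 10 genes are over 2000 nt, with 5, 4 and 1 in the last 3 bins. The mean fragment implied by the effective lengths was 213.2 nt in replicate 1 and 192.5 nt in replicate 2. The part of gene or fragment length in the lower values was not tested.

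**Figure D5:**
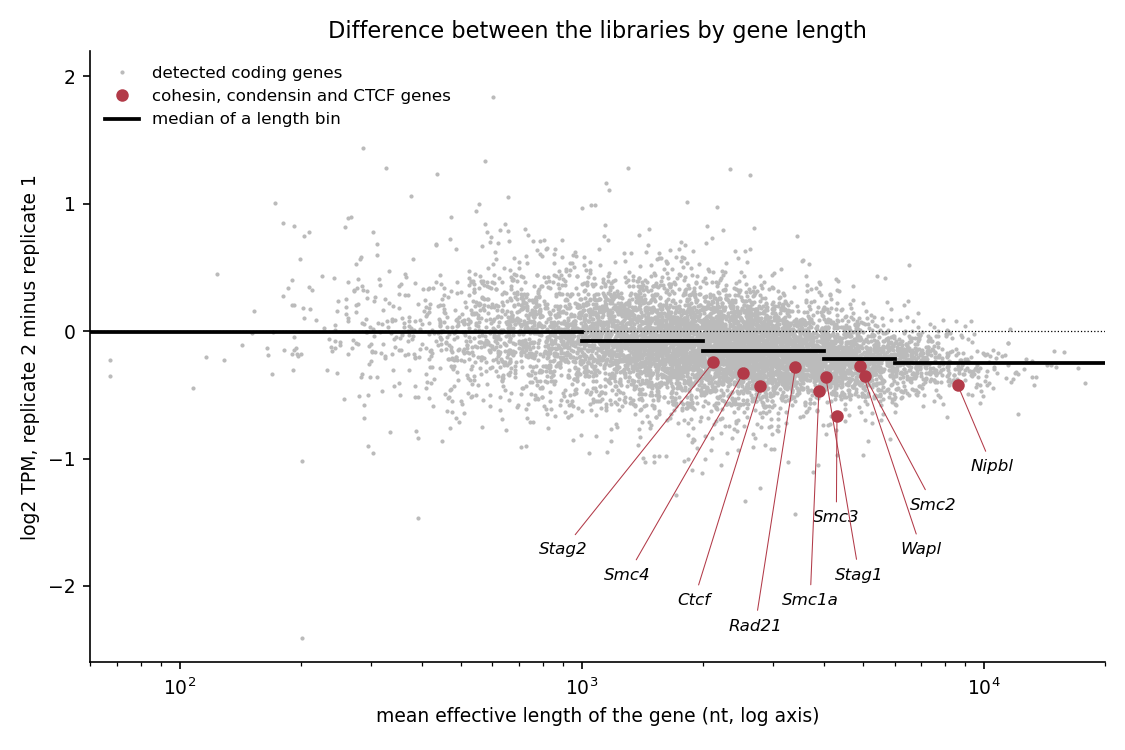
Log2 TPM of replicate 2 minus replicate 1 for 8303 detected protein-coding genes (grey) and the 10 genes (red) against mean effective length in nt on a log axis. Black lines are medians of the length bins and step down from -0.01 to -0.25, and all 10 genes lie below 0, Smc3 lowest at -0.67.

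No gene of the 10 differed by 2-fold or more between the libraries in a two-sided exact binomial test of counts with Benjamini-Hochberg adjustment, against 14.7% of 18409 genes in either direction. With no minimum fold 9 of 10 were lower in replicate 2 (23.6% of the 18409 genes tested) and none was higher (26.8%). These shares are over genes with 10 or more counts and were not matched for depth. At the depth of the 10 genes even small shifts are called, such as -0.09 for Rad21 (log2, scaled counts). Smc3 had the largest difference, -0.48 on the log2 scale of scaled counts (adjusted p = 6.02e-193 in the exact test), and Stag2 the smallest, -0.02 (adjusted p = 0.182 in the exact test). With the size factors of DESeq2 all 10 were lower (24.5% of the genes tested). Of 37 other pathway genes tested, 18 were lower and 9 higher. The test sets 1 library against the other, not 1 condition against another, and its error is that of counting.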

How the data were processed

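Total RNA, 100 ng per library, was depleted of ribosomal RNA and made into ScriptSeq libraries of 200 to 1000 nt from 2 G1E replicates, per the labels. The authors deposited gene and transcript tables per library on mm10 with the GENCODE M4 annotation, per the deposited read-me texts. Per the file headers these hold an expected count, TPM, FPKM, posterior means, a TPM interval and, for transcripts, the percent of the gene's TPM. FPKM was not used. Aligner, quantifier and strand setting were not given in the sources used here. Transcript shares rest on the authors' model and annotation, and very short transcripts gain TPM through a small effective length.

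Symbols, transcript types, exons and printed sequences came from GENCODE M21 (42462 of 43346 genes matched by identifier). Rows that name no gene held 20 and 37.61 counts and stayed out. Genes below 1 TPM took the SD of the 1 to 10 TPM bin. The library test used expected counts rounded to whole numbers, TMM factors from edgeR 4.0.16 (alternative: DESeq2 1.42.0 size factors), genes with 10 or more counts in all and an adjusted p of 0.05. The smallest exact p that 2 libraries allow is 0.5, so levels carry no p. Python 3.11.15 and R 4.3.3 were used, and scripts were tested on simulated data.

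All 10 genes, the highest, lowest and undetected genes of each related list, the genes of the fixed pairs and transcripts with at least 10% of a gene's TPM are named. The genes, lists and pairs were chosen with earlier results of these data known. Protein sequences were not used here.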

Additional observations from a re-analysis of the deposited data

How the results depend on the processing

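All 10 genes stayed detected under every alternative, and the number of gene pairs past the limit ranged from 25 to 34 of 45, and from 11 to 16 of 20 for the fixed pairs. With protein-coding transcripts only, the log2 ratio turned to -0.14 for Smc1a over Rad21, -0.09 for Stag1 over Nipbl, -0.15 for Wapl over Smc2 and 0.07 for Smc2 over Smc4. With transcripts of at least 1000 nt only, it turned to -0.08 for Stag2 over Smc4. None of these 5 ratios but Smc2 over Smc4 was past the limit to begin with. The Stag2 share of Stag1 plus Stag2, 90.7%, was 93.1% with protein-coding transcripts only and 81.3% with transcripts of at least 1000 nt only, which leave the short Stag2-204 in and out. With no minimum fold, 9 genes differed between the libraries in place of 0. The settings of at least 1000 nt and those of the exon shares and member levels were chosen after seeing the data. No paired analysis was possible because there is 1 group. Depth did not limit the 10 genes, but 2 libraries did, since a lone library widens the limit. Of 58 ratios looked at, 7 lost their call without replicate 1 and 9 without replicate 2. Only ratios past the limit with both libraries could lose a call, so 58 is not the base of these losses. Of the 45 pairs, 32 were past the limit with both libraries, 27 without replicate 1 and 25 without replicate 2. For the 20 fixed pairs the numbers were 14, 11 and 11.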

Other observations

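The third SMC complex was also expressed. Of 9 measured genes of SMC5/6 and the lone SMC-like Smchd1, 9 were detected, with a median of 11.33 TPM. Smc5 stood at 12.15 and 8.63 TPM and Smc6 at 13.28 and 9.89, a ratio inside the limit (-0.15 ± 0.04, log2, Smc5 over Smc6). Smchd1, which acts in X inactivation, led at 40.3 ± 4.39 TPM, or 25.14 ± 3.03 from transcripts of at least 1000 nt, and Nsmce3, a subunit that binds the kleisin, was lowest at 1.23 ± 0.148. Of the enzymes and motors that work with condensin 4 of 4 were detected, from Mcph1 at 4.92 ± 0.926 TPM, a regulator of condensin II, to the topoisomerase Top2a at 132 ± 10.3, or 92.52 ± 10.04 from long transcripts. Of Ctcf's paralog and partner factors 5 of 6 were detected, led by Yy1, a factor of enhancer and promoter contacts, at 16.6 ± 1.49 TPM, beside 12.7 ± 2.67 for Ctcf itself. Smc4 hosts the microRNA genes Mir15b and Mir16-2 in an intron, and both had 0 counts in libraries whose size range starts at 200 nt.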
